A study of Homo sapiens with 27 samples.

Results

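The genes described here encode the TREX-2 complex of the nuclear pore: MCM3AP, whose product GANP is the scaffold, together with PCID2, SEM1 (also called DSS1), ENY2, CETN2 and CETN3. Their rows were found by Ensembl gene ID in a table of 34464 genes, and all 6 were present. All 6 also had a mean above 1 FPKM (fragments per kilobase of transcript, scaled to the mapped fragments of the library), the minimum used here, which left 14611 genes outside the mitochondrial genome for testing. Members were defined by gene identity and not by a measured value, although earlier results of these data were known when they were chosen.

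In the study, U2OS cells, a human osteosarcoma line, were depleted of TPR, a filament protein of the nuclear pore basket, and the effect on the distribution of mRNAs between nucleus and cytoplasm was asked by RNA Frac-Seq. Lentivirus delivered either a control shRNA or 1 of 2 shRNAs directed at TPR, named 'TPR A' and 'TPR D', and cells were taken after 5 days. All groups thus shared the cell line and the viral delivery, and the control carried an shRNA as well. There were 3 cultures per shRNA, 9 together, and poly(A)+ RNA was sequenced from the nuclei, from the cytoplasmic/ER fraction and from unfractionated (total) cells of each, which makes 27 libraries. The labels number the replicates but do not say that they were separate infections, so the p-values measure the spread between these samples. TPR D and TPR A were compared with the same 3 control cultures, and their changes are therefore given side by side and not as independent repeats.

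TREX-2 sits at the nucleoplasmic face of the nuclear pore and links transcribed genes and assembling mRNPs to the export machinery. GANP carries the Sac3 homology domain that holds PCID2 and SEM1, and a C-terminal part that binds ENY2 and a centrin. TPR tethers the complex to the pore basket, and ENY2, SEM1 and the centrins also serve other assemblies, namely the SAGA deubiquitinase module, the proteasome lid and BRCA2, and the centriole and the XPC repair complex.

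On GRCh37 (GENCODE release 44) the members lie on 6 chromosomes and differ widely in size. MCM3AP (ENSG00000160294, chromosome 21, 47655047 to 47706211, minus strand) is the longest transcript, with a median mRNA of 6333 nt and 28 exons. PCID2 (ENSG00000126226, chromosome 13, 113831850 to 113863029, minus strand) has a median mRNA of 1786 nt and 15 exons, and CETN2 (ENSG00000147400, chromosome X, 151995538 to 151999301, minus strand) 1413 nt and 5 exons. The other members have mRNAs under 1000 nt. SEM1 (ENSG00000127922, chromosome 7, 96110938 to 96339192, minus strand) has 729 nt and 3 exons, ENY2 (ENSG00000120533, chromosome 8, 110346553 to 110358183, plus strand) 857 nt and 5 exons, and CETN3 (ENSG00000153140, chromosome 5, 89688074 to 89705583, minus strand) 867 nt and 5 exons. MCM3AP overlaps the lncRNA gene MCM3AP-AS1 and PCID2 overlaps CUL4A, each on the opposite strand, and whether the quantification used the strand of the directional libraries is not given in the sources used here.

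TPR mRNA was low in every library of the depleted cells. In total RNA it was at 24.3 to 28.2 scaled FPKM in the 3 control libraries, 3.55 to 4.86 in TPR A and 3.39 to 6.3 in TPR D, a log2 change of -2.59 and -2.44 (SE 0.36 each, limma adjusted p = 0.0012 and 0.0016). Of the markers listed for the line, RUNX2, SPARC, VIM, COL1A1 and COL5A1 averaged 15.7 to 1620 FPKM, the epithelial marker EPCAM 3.88, and CDH1, KRT19, PTPRC, CD3E and CDH5 at most 0.627. Genes of the mitochondrial genome took 26.5% to 37.9% of FPKM in cytoplasmic/ER, 15.8% to 24.7% in total and 0.774% to 2.42% in nuclear libraries, except that control replicate 2 had 21.8% in the library labelled nuclear and 0.738% in the library labelled total. These 2 libraries also correlated best with the opposite fraction. Without this culture, the nuclear RNAs MALAT1 and NEAT1 averaged 30.4 and 43.5 scaled FPKM in control nuclear libraries. In control cytoplasmic/ER libraries they averaged 8.86 and 11.7. In control total libraries they averaged 104 and 102, above their means in the nuclear libraries. The nuclear and total libraries of control replicate 2 were kept under their labels, and values without this culture are given beside the main results. One FPKM on 1 kb of transcript stood for an estimated 31.4 to 87.2 reads, so that the members had roughly 420 (CETN3, lowest library) to 17500 reads (SEM1, highest library).

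The members differed widely in abundance per length of transcript, with SEM1 at the top and the scaffold MCM3AP at the bottom. The median over the 9 total libraries was 311 scaled FPKM (FPKM divided by a factor per library, which makes the typical gene equal between libraries) for SEM1, 160 for ENY2, 42.7 for CETN3, 36.7 for PCID2, 26.6 for CETN2 and 18.6 for MCM3AP. SEM1 exceeded ENY2 in 9 of 9 total libraries (median ratio 1.97), although their ranges across libraries, 208 to 583 and 109 to 344, overlapped. ENY2 exceeded CETN3 in 9 of 9 by a median ratio of 3.46, and here the ranges did not overlap. CETN3 and PCID2 could not be ordered, since CETN3 was higher in only 5 of 9 libraries (median ratio 1.07). PCID2 was above CETN2 in 9 of 9 (1.46) and CETN2 above MCM3AP in 7 of 9 (1.29), with overlapping ranges in both cases.

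**Figure D1:**
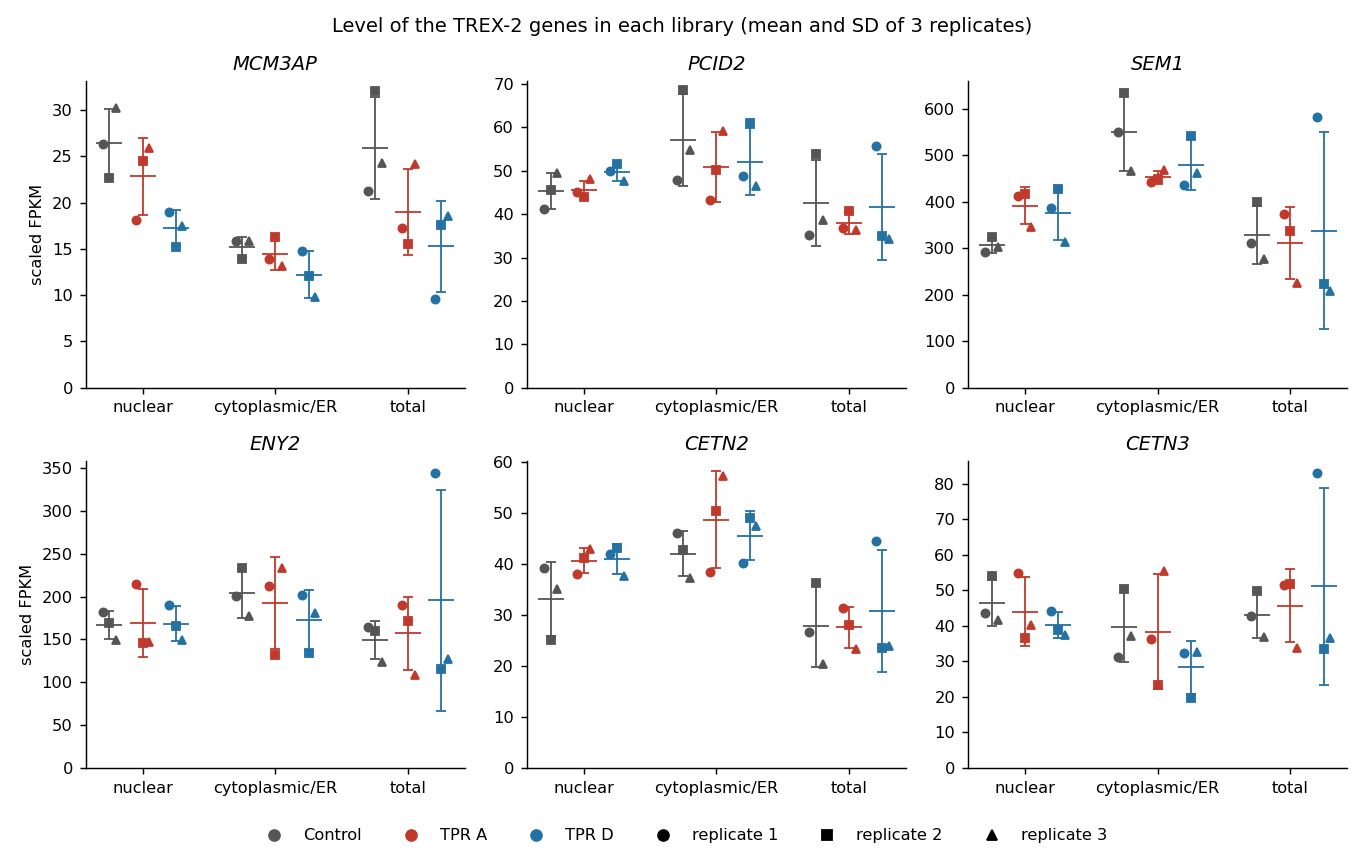
Scaled FPKM (linear axis from 0) of each TREX-2 gene by fraction, with 1 point per library, colours for the shRNA, symbols for the replicate number, and horizontal and vertical bars for the mean and SD of 3 replicates. MCM3AP in total RNA lies between 9.57 and 18.6 in TPR D and between 21.3 and 32.0 in control libraries, and TPR D replicate 1 is the highest total library for PCID2, SEM1, ENY2, CETN2 and CETN3.

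MCM3AP, the scaffold, had the lowest log2 change of the members in total RNA under both TPR shRNAs, but no member passed the test. In the 3 control total libraries MCM3AP was at 21.3, 32.0 and 24.3 scaled FPKM. The TPR A libraries had 17.2, 15.5 and 24.2, and the TPR D libraries 9.57, 17.6 and 18.6. Every TPR D library was thus below every control library, which held for no other member and for 7.93% of all genes tested, while TPR A overlapped control. The log2 change was -0.79 for TPR D (SE 0.24, 95% interval -1.29 to -0.3, unadjusted p = 0.0029, limma adjusted p = 0.11) and -0.45 for TPR A (SE 0.24, interval -0.94 to 0.04, adjusted p = 0.447). For both shRNAs together it was -0.62 (SE 0.21, adjusted p = 0.136, 2-sided exact permutation p over 84 splits of the 9 cultures = 0.0714). Leaving out control replicate 2, which has the highest control value, gave -0.46 (limma adjusted p = 0.617, exact permutation p over 28 splits = 0.214), and -0.29 for TPR A (adjusted p = 0.905).

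In TPR D total RNA the change of MCM3AP had to be below 0 in each set of replicates, since no such library overlapped control. It was -1.15 between the replicates numbered 1 and -0.62 over replicates 2 and 3 (SE 0.26, adjusted p = 0.45), and -0.63 without control replicate 2 (adjusted p = 0.433). Over all alternatives it ranged from -0.97 to -0.49, with limma adjusted p from 0.0656 (replicate number as a block) to 0.45, and -0.49 is the value without TPR D replicate 1. The difference between TPR D and TPR A was itself not called (log2 -0.34, SE 0.24, adjusted p = 0.928). Among 1276 mRNAs over 5000 nt, a length class with a median change of 0.04 in TPR D total RNA, MCM3AP stood at the 3.0 percentile, and at the 5.3 percentile without control replicate 2.

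In the nucleus MCM3AP followed the same order of groups. The control nuclear libraries had 26.3, 22.7 and 30.2 scaled FPKM, TPR A 18.1, 24.5 and 25.9, and TPR D 19, 15.2 and 17.5. All TPR D values lay below all control values (as for 8.34% of all genes) and the log2 change was -0.61 (SE 0.24, unadjusted p = 0.0179, limma adjusted p = 0.396), against -0.22 for TPR A (adjusted p = 0.756). Without control replicate 2, all 6 TPR-depleted cultures lay below control in nuclear MCM3AP, as for 6.74% of all genes. In the cytoplasmic/ER fraction MCM3AP was at 15.8, 13.9 and 15.8 in control, 13.9, 16.3 and 13.1 in TPR A and 14.8, 12.1 and 9.77 in TPR D libraries. These groups overlapped, with changes of -0.08 and -0.33 (adjusted p = 0.953 and 0.775). In bulk RNA of this kind, fewer cells with the transcript and less of it per cell cannot be told apart.

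MCM3AP-AS1, transcribed from the strand opposite MCM3AP, had a mean of 3.84 scaled FPKM in total RNA. It had 3.33, 1.07 and 4.3 in control, and its log2 change in total RNA was 0.57 in TPR A and 0.88 in TPR D (SE 0.39 each, limma adjusted p = 0.574 and 0.308). Leaving out control replicate 2, the lowest of these, gave changes of -0.01 and 0.3 (adjusted p = 0.998 and 0.886). LENG8, a human relative of GANP with a Sac3 domain, had -0.6 under each shRNA (SE 0.33, adjusted p = 0.466 and 0.407), and -0.48 and -0.47 without control replicate 2.

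PCID2, the PCI-domain subunit bound to the Sac3 region, varied least of the members across the total libraries, where its highest value was 1.63 times its lowest. In total RNA it had 35.2, 53.9 and 38.7 scaled FPKM in control, 36.7, 40.7 and 36.4 in TPR A, and 55.8, 35.0 and 34.2 in TPR D libraries. The groups overlapped, and the log2 changes were -0.14 and -0.05 (SE 0.2 each, limma adjusted p = 0.808 and 0.934), or 0.04 and 0.14 without control replicate 2. Its nuclear means were 45.4 ± 4.13, 45.7 ± 2.09 and 49.7 ± 2.0 (SD, n = 3) in control, TPR A and TPR D cells.

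SEM1, the small acidic subunit, was the most abundant member and had the largest change of the members in its distribution between fractions. In the nuclear libraries it had 293, 324 and 303 scaled FPKM in control, 413, 417 and 345 in TPR A, and 387, 427 and 314 in TPR D cells. Every TPR A library was above every control library, as for 8.16% of all genes, while TPR D overlapped control. Without control replicate 2, every TPR-depleted library lay above control in nuclear SEM1, as for 6.10% of all genes. In the cytoplasmic/ER libraries the order was the other way round, with 551, 634 and 466 in control, 442, 448 and 468 in TPR A, and 437, 541 and 461 in TPR D cells, and here both TPR groups overlapped control. The nuclear log2 changes were 0.35 and 0.28 (limma adjusted p = 0.656 and 0.854) and the cytoplasmic/ER changes -0.27 and -0.19 (SE 0.28 each, adjusted p = 0.798 and 0.932).

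In total RNA the level of SEM1 depended on 1 library. The TPR D libraries had 583, 223 and 208 scaled FPKM, around control values of 311, 399 and 278, and the TPR A libraries 373, 338 and 225. TPR D replicate 1 stood above all other total libraries and the 2 other TPR D libraries below all control libraries, and the log2 change was -0.12 (SE 0.28, limma adjusted p = 0.877). It was 0.91 between the replicates numbered 1 and -0.63 over replicates 2 and 3 (adjusted p = 0.462).

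ENY2, the adaptor that binds the C-terminal part of GANP, shared this library. Its total RNA values were 165, 160 and 124 scaled FPKM in control, 190, 172 and 109 in TPR A, and 344, 116 and 127 in TPR D libraries. The log2 changes were 0.04 and 0.21 (SE 0.32 each, limma adjusted p = 0.969 and 0.783), and for TPR D 1.06 within replicate 1 and -0.22 within replicates 2 and 3. The nuclear means, 166 ± 17.0, 169 ± 39.3 and 168 ± 20.7 (SD, n = 3) in control, TPR A and TPR D cells, differed by less than the spread between replicates.

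The centrins, small calcium-binding proteins that bind the C-terminal part of GANP, followed it as well. CETN2 had 26.6, 36.3 and 20.4 scaled FPKM in control, 31.3, 28.0 and 23.4 in TPR A, and 44.5, 23.6 and 24.0 in TPR D total libraries. CETN3 had 42.7, 49.8 and 36.8 in control, 51.4, 51.9 and 33.8 in TPR A, and 83.2, 33.6 and 36.6 in TPR D. For both, TPR D replicate 1 was the highest of the 9 total libraries and the groups overlapped (log2 changes of 0.02 to 0.13, limma adjusted p = 0.842 to 0.98). The changes of CETN2 were 0.23 and 0.33 and those of CETN3 0.18 and 0.24 without control replicate 2, none of them called. CETN1, the testis-enriched relative of CETN2, was listed at 0 in all 9 total libraries.

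TPR D replicate 1 of the total fraction also had the largest imbalance of short against long mRNAs among the total libraries. In it the median deviation of mRNAs under 1000 nt from the other libraries of the fraction exceeded that of mRNAs over 5000 nt by 0.47 on the log2 scale, whereas in the 2 other TPR D total libraries the difference was -0.31 and -0.32. Control replicate 2 was next, with 0.37, and the other total libraries lay between -0.27 and 0.14. The 5 members with mRNAs under 2000 nt had their highest total value in this library and MCM3AP its lowest. The part of this imbalance in the members' values was not tested.

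**Figure D2:**
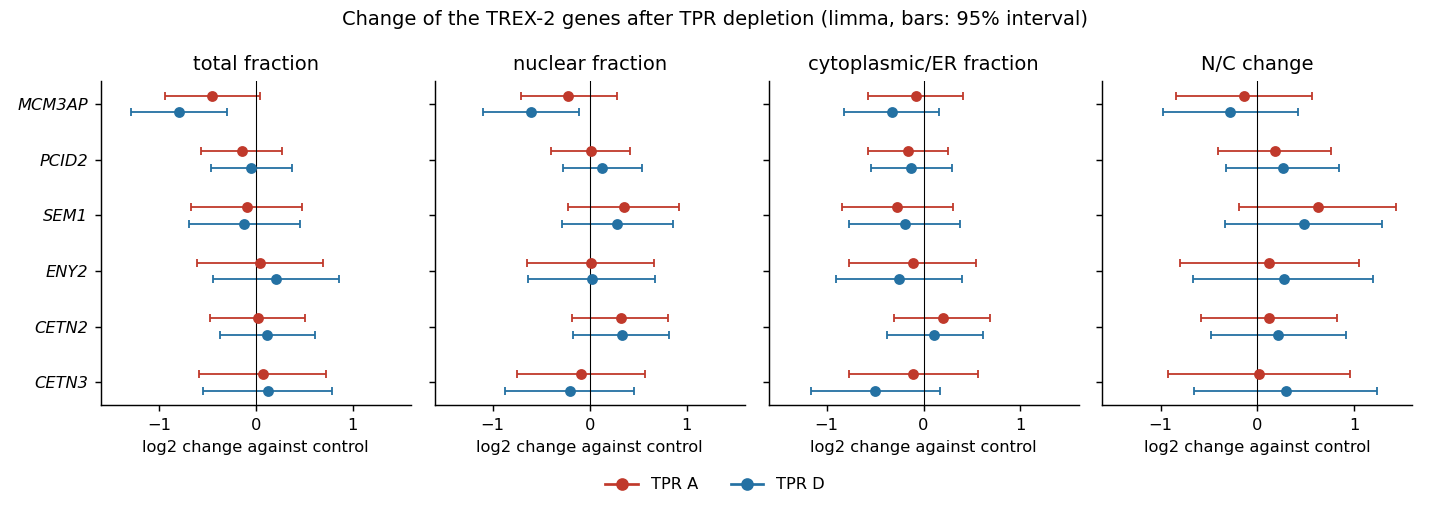
Log2 change against control (horizontal axis) of each TREX-2 gene for TPR A and TPR D in the 3 fractions and for the N/C change, from limma, with bars for 95% intervals. MCM3AP in TPR D has the intervals farthest below 0, -1.29 to -0.3 in total and -1.1 to -0.11 in nuclear RNA, and SEM1 the highest N/C changes, 0.62 and 0.48.

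Across the complex, 0 of 6 members passed the limma test in any comparison of a TPR shRNA with control within a fraction. In total RNA the test called 0.821% of all genes in TPR A, 0.753% in TPR D and 1.14% with both shRNAs together, in nuclear RNA 0.903%, 0.479% and 0.808%, and in cytoplasmic/ER RNA 0.623%, 0.575% and 0.643%. At these shares no call among 6 genes is what the background gives. At an unadjusted p under 0.05 the count of members was 1, MCM3AP, in TPR D total and nuclear RNA and in total RNA of both shRNAs, and 0 in the others. Of all 14611 genes, 2137 were under this threshold in TPR D total, 1334 in TPR D nuclear and 2351 in total RNA of both shRNAs. The median log2 change of the 6 members in total RNA was -0.04 in TPR A and 0.04 in TPR D, beside -0.01 in all genes for each, and 0.07 and 0.19 without control replicate 2, with 5 of 6 above 0.

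The distribution between nucleus and cytoplasm set MCM3AP and SEM1 apart from each other already in control cells. The N/C ratio, nuclear over cytoplasmic/ER scaled FPKM, is relative to the typical gene because of the scaling between libraries. MCM3AP had ratios of 1.66, 1.63 and 1.91 in the 3 control cultures and SEM1 0.532, 0.511 and 0.649. MCM3AP was thus nuclear-enriched (log2 0.79, SE 0.24, limma adjusted p = 0.0116) and SEM1 cytoplasmic-enriched (-0.83, SE 0.28, adjusted p = 0.0201). In control cells 20.2% of all genes were called higher in the nucleus and 19.2% higher in the cytoplasm/ER, so that 1 of 6 members in each direction is close to the background. MCM3AP lay at the 79.9 percentile of all genes and SEM1 at the 16.5 percentile.

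Without control replicate 2 the N/C ratio of MCM3AP in control cells was 0.83 (limma adjusted p = 0.0349) and that of SEM1 -0.77, no longer called (adjusted p = 0.0974). Without control replicate 1 or control replicate 3, neither gene was called. With the culture as a block, since nuclear and cytoplasmic/ER libraries of a culture deviated together, adjusted p was 0.0018 and 0.000724. Among all genes tested, 7969 were called in control cells under this block, against 5750 without it.

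PCID2, ENY2 and CETN2 lay on the cytoplasmic side and CETN3 on the nuclear side in control cells, and none of them was called. PCID2 had N/C ratios of 0.863, 0.662 and 0.903, ENY2 0.908, 0.722 and 0.841, and CETN2 0.849, 0.589 and 0.942, with the lowest ratio in control replicate 2 each time. All control ratios of these genes were below 1. CETN3 had 1.4, 1.07 and 1.12, all above 1 (log2 0.25, SE 0.32, adjusted p = 0.564).

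**Figure D3:**
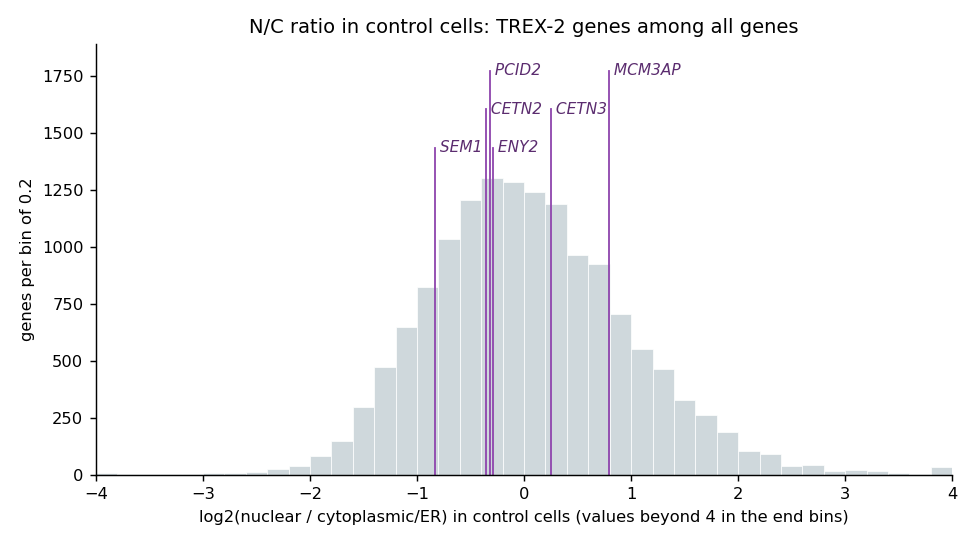
Number of genes per bin of log2 N/C ratio in control cells over 14611 genes (bars; values beyond 4 are in the end bins), with lines at the TREX-2 genes. SEM1 (-0.83) and MCM3AP (0.79) lie on either side of the other 4, which are between -0.36 and 0.25.

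In TPR-depleted cells the mean N/C ratios of the members spanned a narrower range, -0.24 to 0.65 on the log2 scale in TPR A and -0.36 to 0.54 in TPR D, against -0.83 to 0.79 in control. This was not particular to the members. Over all protein-coding genes, the medians for pre-mRNAs under 10 kb and over 50 kb were -0.44 and 0.42 in control. They were -0.14 and 0.18 in TPR A and -0.25 and 0.24 in TPR D. MCM3AP had 1.31, 1.5 and 1.97 in TPR A and 1.28, 1.26 and 1.79 in TPR D cultures. It was called higher in the nucleus in TPR A (log2 0.65, SE 0.24, limma adjusted p = 0.0444, 15.2% of all genes called in this direction) and not in TPR D (0.51, SE 0.24, adjusted p = 0.107, 17.1% called), where a block on the culture gave an adjusted p of 0.0205. SEM1 had 0.934, 0.931 and 0.736 in TPR A and 0.885, 0.788 and 0.681 in TPR D, and was not called (-0.21 and -0.36, adjusted p = 0.6 and 0.346). No member was called higher in the cytoplasm/ER in TPR A, where 13.2% of all genes were, or in TPR D, where 14.6% were. MCM3AP lost its call in TPR A when any 1 of the TPR A cultures, control replicate 1 or 3, or TPR D replicate 2 was left out (adjusted p up to 0.271 over all alternatives). Under the culture block 6640 genes were called in TPR A and 6986 in TPR D, against 4148 and 4638 without it.

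The change of the N/C ratio upon depletion was largest for SEM1, at 0.62 in TPR A (SE 0.39, 95% interval -0.19 to 1.43) and 0.48 in TPR D (SE 0.39, interval -0.33 to 1.29). All 6 TPR-depleted cultures had a higher N/C ratio of SEM1 than all 3 control cultures, with and without control replicate 2. Of all genes, 10.0% lay wholly above control in TPR A, 6.04% in TPR D and 3.07% in both together. Without control replicate 2 these shares were 12.1%, 9.49% and 4.09%. The limma test called no gene for the N/C change, 0.00% in TPR A, 0.00% in TPR D and 0.00% for both shRNAs, and 0 of 6 members were called (SEM1 adjusted p = 0.987, 1.0 and 0.999). At an unadjusted p under 0.05, limma gave 215, 120 and 251 of all genes and none of the members.

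Exact permutation tests over the 84 splits of the 9 cultures, which assume no model of the spread, were made for each member in 4 measures, 24 tests in all, and are unadjusted. For the N/C change of SEM1 (log2 0.55) the exact permutation p was 0.0119, the smallest these splits can give, and 10.3% of all genes were under 0.05. Without control replicate 2 the change was 0.48 and the exact p 0.0357, the smallest of 28 splits. This p is no further support, since the groups already did not overlap, and no share of all genes is given for it. In nuclear RNA SEM1 (0.32) and CETN2 (0.32) each had an exact p of 0.0357, where 11.9% of all genes were under 0.05, and in cytoplasmic/ER RNA SEM1 (-0.23) had 0.0357, where 8.92% were. Without control replicate 2 the exact p of SEM1 was 0.0357 in nuclear and 0.214 in cytoplasmic/ER RNA. That of CETN2 was 0.143 in nuclear RNA, where its lowest nuclear library, at 25.1 scaled FPKM, is control replicate 2. The other 20 tests gave exact p from 0.0714 to 0.893.

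In each set of replicates the N/C change of SEM1 had to be positive, since its groups did not overlap. Between the cultures numbered 1 it was 0.81 in TPR A and 0.73 in TPR D, and over replicates 2 and 3 it was 0.52 and 0.35 (SE 0.4 each, limma adjusted p = 0.999 and 1.0). PCID2, ENY2, CETN2 and CETN3 had changes of 0.02 to 0.29 and MCM3AP -0.14 and -0.28, and their 95% intervals all included 0. Taking both shRNAs together, 5 of 6 members were above 0, with a median of 0.18 beside 0.00 over all genes. This was, without control replicate 2, 4 of 6 with a median of 0.08, since the changes became 0.08 for PCID2, 0.1 for ENY2, -0.03 for CETN2 and 0.08 for CETN3, with 0.48 for SEM1 and -0.25 for MCM3AP. No difference between TPR D and TPR A in the N/C change of a member was called (log2 differences of -0.14 to 0.27, limma adjusted p = 1.0).

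**Figure D4:**
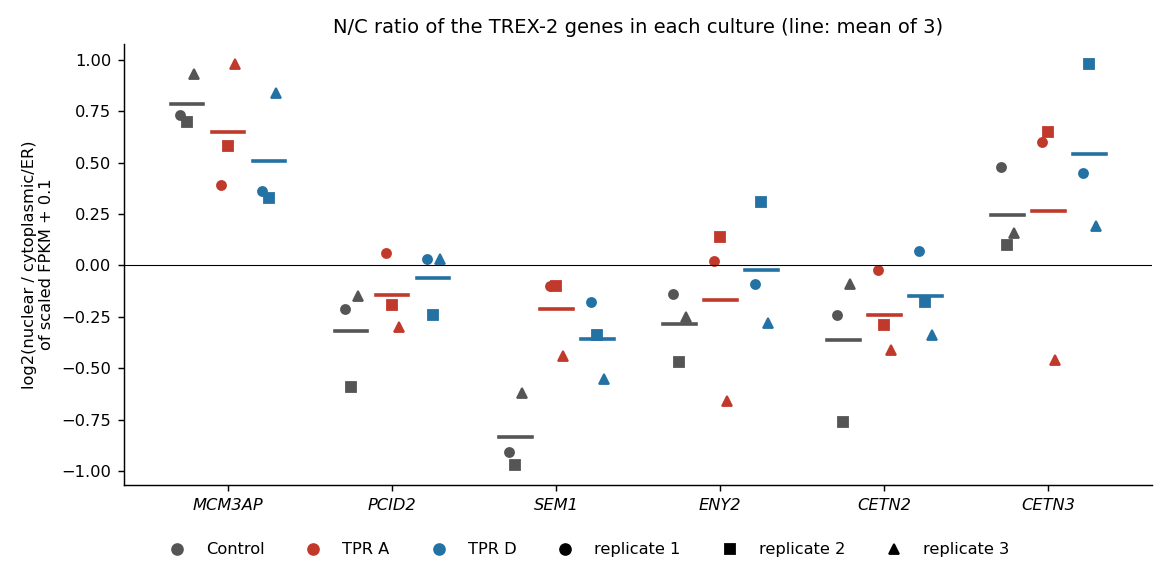
Log2 N/C ratio of each TREX-2 gene in each of the 9 cultures (points; colours for the shRNA, symbols for the replicate number, lines for the mean of 3). SEM1 lies between -0.97 and -0.62 in the control cultures and between -0.55 and -0.1 in the 6 TPR-depleted cultures, and MCM3AP is above 0 in all 9.

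Since the study compared the N/C change across lengths of the pre-mRNA, the members are set beside protein-coding genes of their own class. For pre-mRNAs under 10 kb, which include ENY2 and CETN2, the median N/C change for both shRNAs was 0.23 over 3289 genes, and ENY2 had 0.19 and CETN2 0.17, both slightly below it. CETN3, in the class of 10 to 20 kb (median 0.07, 2371 genes), had 0.15, slightly above.

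SEM1 and PCID2 fall in the class of 30 to 40 kb, whose median change was -0.04 over 1014 genes. PCID2 had 0.22 and SEM1 0.55, both above it. By mature length SEM1 belongs to the 2868 mRNAs under 1000 nt, with medians of 0.17 in TPR A and 0.12 in TPR D, and it lay at the 87.4 and 84.8 percentiles of these (91.5 and 87.4 without control replicate 2). MCM3AP, in the class over 50 kb (median -0.2, 3408 genes), had -0.21. In control cells its N/C ratio, 0.79 on the log2 scale, stood at the 53.9 percentile of mRNAs over 5000 nt, for which the median was 0.71. The class medians without control replicate 2 were 0.12 under 10 kb, 0.02 for 10 to 20 kb, -0.06 for 30 to 40 kb and -0.12 over 50 kb. CETN2, at -0.03, was then below its class, ENY2 (0.1) close to it, CETN3 (0.08), PCID2 (0.08) and SEM1 (0.48) above it, and MCM3AP (-0.25) below it. Except for SEM1, each of these distances from the class median was smaller than the SE of the member's change with all cultures (0.24 to 0.39).

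Across the 27 libraries the genes most like each member in their log2 level were different for each. MCM3AP was most like EP400 (Pearson r = 0.927), a chromatin remodeller, and CNTNAP1 (0.908). SEM1 was most like NDUFC2 (0.952), a subunit of respiratory complex I, and RPA3 (0.949), and CETN2 most like MCTS1 (0.946) and ATP5PD (0.944). PCID2 was most like MRPL51 (0.895) and GEMIN6 (0.889), ENY2 most like SF3B6 (0.915) and RTRAF (0.906), and CETN3 most like NOL7 (0.906) and FRG1 (0.904). These libraries share fractions and cultures, so the correlations are descriptions. Within fractions, the members closest to each other were ENY2 and CETN3 (r = 0.889), and MCM3AP had negative correlations with the 5 others (-0.511 to -0.171).

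The partners of the members were taken from lists of 48 genes, of which 47 passed the minimum. Of these, 2 were called between the shRNAs, where each comparison with control within a fraction called 0.479% to 1.14% of all genes. One is TPR itself, which fell in all fractions under each shRNA. The other is RAD23B, which binds XPC together with CETN2 and fell in nuclear RNA of TPR A (log2 -1.12, SE 0.26, limma adjusted p = 0.0399), with -0.03 in TPR D (adjusted p = 0.991). In nuclear RNA of TPR A the test called 0.903% of all genes, so that such a call among 47 genes is near the background. RAD23B was at -0.86 in TPR A without control replicate 2 and not called (adjusted p = 0.206), and over the alternatives adjusted p ranged from 0.0225 to 0.257. In total RNA of TPR A it had -0.75 (adjusted p = 0.214). The difference between TPR D and TPR A for RAD23B in nuclear RNA was 1.09 and was not called (adjusted p = 0.0761), but was without control replicate 2 (0.0398) or under the replicate block (0.0375).

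In the SAGA deubiquitinase module and its relatives, which use ENY2, 0 of 6 genes were called in total RNA under each shRNA, with a median log2 change of -0.06 in TPR A and -0.08 in TPR D beside -0.01 over all genes (3 and 0 genes at an unadjusted limma p under 0.05). Of all 14611 genes, 1847 in TPR A and 2137 in TPR D total RNA were under this threshold, the background for each list. Without control replicate 2, the deubiquitinase list had 0 genes under it in TPR A and 0 in TPR D. Its most abundant gene was the deubiquitinase USP22 (mean of 218 scaled FPKM in total RNA, log2 changes of -0.62 and -0.5, limma adjusted p = 0.373 and 0.421), and its least abundant ATXN7L1 (1.92). In the list of proteasome subunits and BRCA2, partners of SEM1, 0 of 11 were called, with medians of -0.2 and -0.29 (0 and 2 genes at an unadjusted p under 0.05). PSMD2, the most abundant at 504, had -0.41 and -0.84 (adjusted p = 0.627 and 0.232), and BRCA2, the least abundant at 7.79, had 0.83 and 1.05 (adjusted p = 0.504 and 0.33).

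In the list of 18 mRNA export factors none was called, with medians of -0.19 and -0.22 in total RNA (1 and 2 genes at an unadjusted p under 0.05). The most abundant was the helicase DDX39B (656, changes of -0.03 and -0.09, limma adjusted p = 0.981 and 0.925), which has the close paralog DDX39A with which reads may be shared, and the least abundant the THO subunit THOC1 (9.36, changes of -0.2 and 0.31, adjusted p = 0.806 and 0.619). Of the 5 centrin partners tested, none was called in total RNA (medians of -0.31 and -0.35, 2 and 1 genes at an unadjusted p under 0.05), and of the 3 Sac3-domain relatives and antisense genes none was either (medians of -0.52 and -0.47, 0 and 1 genes). The medians moved without control replicate 2, to -0.05 and -0.01 for the deubiquitinase list, 0.08 and -0.01 for the proteasome list, 0.05 and 0.1 for the export list, -0.15 and -0.18 for the centrin partners and -0.14 and -0.09 for the Sac3 list, and PSMD2 then had -0.01 and -0.43 and DDX39B 0.31 and 0.25. None of these lists then had a call in total RNA either. At an unadjusted limma p under 0.05 the proteasome list then had 0 and 0 genes and the export list 2 and 2. The centrin partners had 2 and 0, and the Sac3 list 0 and 0. For none of the lists is a count of all genes under this threshold without control replicate 2 given here. In the nuclear basket list NUP50, the most abundant at 59.1, had 0.03 and 0.07 (adjusted p = 0.971 and 0.932).

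The partners were also spread between the fractions. In control cells 10 of the 47 were called higher in the nucleus and 6 higher in the cytoplasm/ER, beside 20.2% and 19.2% of all genes, and 11 and 3 without control replicate 2. TPR mRNA itself was at 3.35 on the log2 scale (SE 0.36, limma adjusted p = 1.91e-06), BRCA2 at 3.33 (SE 0.5, adjusted p = 3.67e-05) and THOC1 at 1.31 (SE 0.27, adjusted p = 0.000688), whereas PSMD2, USP22, DDX39B and NUP50 were not called.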

How the data were processed

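RNA Frac-Seq libraries of poly(A)+ RNA from U2OS cells were made by the authors with a directional kit. The authors quantified reads with Salmon on Gencode release 19 protein-coding and long non-coding transcripts (hg19), collapsed transcripts into genes with tximport, and deposited a table of FPKM, 34464 genes by 27 libraries. Tool versions and the strand setting are not given in the sources used here. Values were taken from the FPKM alone, since counts, which the authors' DESeq2 analysis needs, were not analysed here.

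Gene symbols matched 32776 IDs, and positions and lengths came from GENCODE release 44 on GRCh37. Each library's FPKM was scaled by its median-of-ratios factor (0.954 to 1.06, "scaled FPKM"), and log2(value + 0.1) was fitted with limma 3.58.1 in R 4.3.3 (eBayes with trend) over all 27 libraries in 9 groups, for 14611 genes with a mean above 1 FPKM outside the mitochondrial genome. Adjusted p are Benjamini-Hochberg values over these genes, with a threshold of 0.05. The pseudocount understates changes of low genes. Exact permutation tests and summaries used Python 3.11.15, numpy 2.4.6, pandas 2.3.3 and scipy 1.17.1, and figures matplotlib 3.10.9. The fit and the permutation test were tested on simulated data. Depth was estimated from steps of 1 read in low FPKM (87.7% of 40712 values within 0.1 of a whole read).

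The members and lists were chosen with earlier results of these data known. Named are all members, TPR, partner genes called between shRNAs or with the largest or smallest mean of their list in total RNA, the 2 genes most correlated with each member, and LENG8 and MCM3AP-AS1 as ends of their list. Same-numbered cultures deviated together (each of 3 pairs with a correlation over 0.1) for control and TPR A in total RNA (0.137 to 0.324), for TPR A and TPR D in nuclear (0.131 to 0.266) and cytoplasmic/ER RNA (0.398 to 0.597), and for the 2 fractions of a culture (0.223 to 0.469). Not each pair did so otherwise. Alternatives were unscaled values, a pseudocount of 1 or 0.01, no minimum, a minimum mean of 5 FPKM, each culture left out, the replicate number or the culture as a block, no trend, only control and 1 TPR shRNA, and replicates 2 and 3 only. A permutation test, list medians and length classes without control replicate 2, and shares of genes apart in 1 direction, were added after seeing the data.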

Additional observations from a re-analysis of the deposited data

How the results depend on the processing

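In none of the alternatives that could be fitted did limma call a member between the shRNAs, in any fraction or in the N/C change, and no call reversed. By exact permutation over the cultures, unadjusted, 1 member (SEM1) passed for the N/C change of both shRNAs together. It also passed without control replicate 2 (1, an alternative chosen after seeing the data), which adds no support, since its groups did not overlap. In control cells 2 members, by their N/C ratio, were called, 1 over replicates 2 and 3 only, and 0 to 2 with a culture left out (0 without control replicate 1 or 3, 1 without control replicate 2). In TPR A 1 was called, 0 with the values as deposited, with no minimum of FPKM and over replicates 2 and 3 only, and 0 to 1 with a culture left out. In TPR D none was called, and 1 with the culture block. With the replicate block no call of a member changed, although the calls among all genes rose in total RNA from 120 to 378 for TPR A and from 110 to 461 for TPR D; MCM3AP in TPR D had an adjusted p of 0.0656 under this block (limma). Apart from the calls, 107 of 1704 changes of members between shRNAs had another sign under an alternative, all of them uncalled, and the 216 alternative values of the members' mean levels all stayed within 1 SD. Over replicates 2 and 3 only, 0 to 1 of all genes were called in total RNA for each shRNA, so that this setting bears little on the members. Whether control replicate 2 carries exchanged labels cannot be settled from the sources used here.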
